A study of Mus musculus with 6 samples.

Results

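The genes described here mark the blood vessels of the brain: 26 genes of endothelial cells, which form the vessel wall, and 10 genes of mural cells, the pericytes and smooth muscle cells that wrap it. They were chosen as a named list of 36 genes, and every probe set (a group of short array probes) annotated to exactly 1 of these symbols was taken. This gave 58 probe sets of 34 genes, out of 45037 probe sets of the array that are not controls and 18193 genes with such a probe set. Ly6c1 and Ly6a had no probe set under this rule and were not analysed here.

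The samples were the medial prefrontal cortex, both hemispheres, of 6 male 129S1/SvImJ mice aged 8 to 10 weeks, an inbred strain, each on its own Affymetrix Mouse430_2 array. All 6 had fear extinction training, and the tissue was taken 2 h later. Control mice 1, 5 and 9 had the diet labelled Ctrl, and ZnR mice 3, 7 and 11 had the diet labelled ZnR, which the series describes as a zinc diet without giving its composition in the sources used here. The tissue was dissected with no sort of vascular cells. Fewer cells of a type, less RNA per cell and a difference in what was dissected therefore cannot be told apart. The study's title refers to inhibited histone deacetylases, to dopamine and to long-term inhibition of fear, and the comparison is of ZnR with control mice.

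Brain endothelial cells are joined by tight junctions and carry nutrient transporters and efflux pumps, which together make the blood-brain barrier. Pericytes sit on the capillaries and are recruited by platelet-derived growth factor through the receptor Pdgfrb, while smooth muscle cells ring the arterioles and hold the contractile proteins that set vessel width. Endothelial growth and stability depend on the vascular endothelial growth factor (VEGF) receptors Flt1 and Kdr and on the angiopoietin receptor Tek.

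Values are log2 expression, so a difference of 1 is a doubling. A probe set was tested if it exceeded 4 on at least 3 arrays, and all 25381 such probe sets were fitted together in limma, whose Benjamini-Hochberg adjusted p had a threshold of 0.05. Of the 58 member probe sets, 46 of 30 genes were tested, and 45 of these exceeded 4 on all 6 arrays. The exception was Kdr, with 3 arrays above 4 from both diets. Tie1, Anpep, Tagln and Myh11 had no tested probe set. Precision is limited by how few arrays there are.

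As a check of the tissue, 6 of 7 listed cortical excitatory neuron markers were measured, and their mean over genes lay between 8.04 and 9.16 log2 units in the 6 mice. Markers of striatal medium spiny neurons (8 measured) were also present in every mouse, at a mean of 10.6 to 11.1 in controls and 11.3 to 11.5 in ZnR mice. Of these markers, 2 rose (Drd2 and Gpr6), where 0.655% of all 11749 genes did. How much striatal tissue each sample held was not tested. Signal from the chip's 18S ribosomal RNA controls was lower on the arrays of control mouse 1 (mean 9.09) and ZnR mouse 3 (8.44) than on the others (10.9 to 12.4), so values for this pair, 1 mouse of each diet, and for the remaining mice are also given for a number of members. The array file of control mouse 1 is also labelled in a different way from the rest.

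Of the 46 member probe sets, 1 fell in ZnR mice, none rose and 45 did not pass the test. Over all probe sets tested, 1.01% fell (256), 0.461% rose (117) and 1.47% passed in either direction (373), so the count among the vascular probe sets was close to the background. At an unadjusted p under 0.05 there were 13 of 46 (28.3%), against 17% of all probe sets tested. The probe set that fell was that of Cd34, a sialomucin glycoprotein on the surface of endothelial cells and of blood progenitor cells. Levels of the 2 diets did not overlap for 15 of the 46, or 32.6%, with 11 higher and 4 lower in ZnR mice. Over all probe sets the share was 23.7%, of which 13.1% higher and 10.6% lower.

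**Figure D1:**
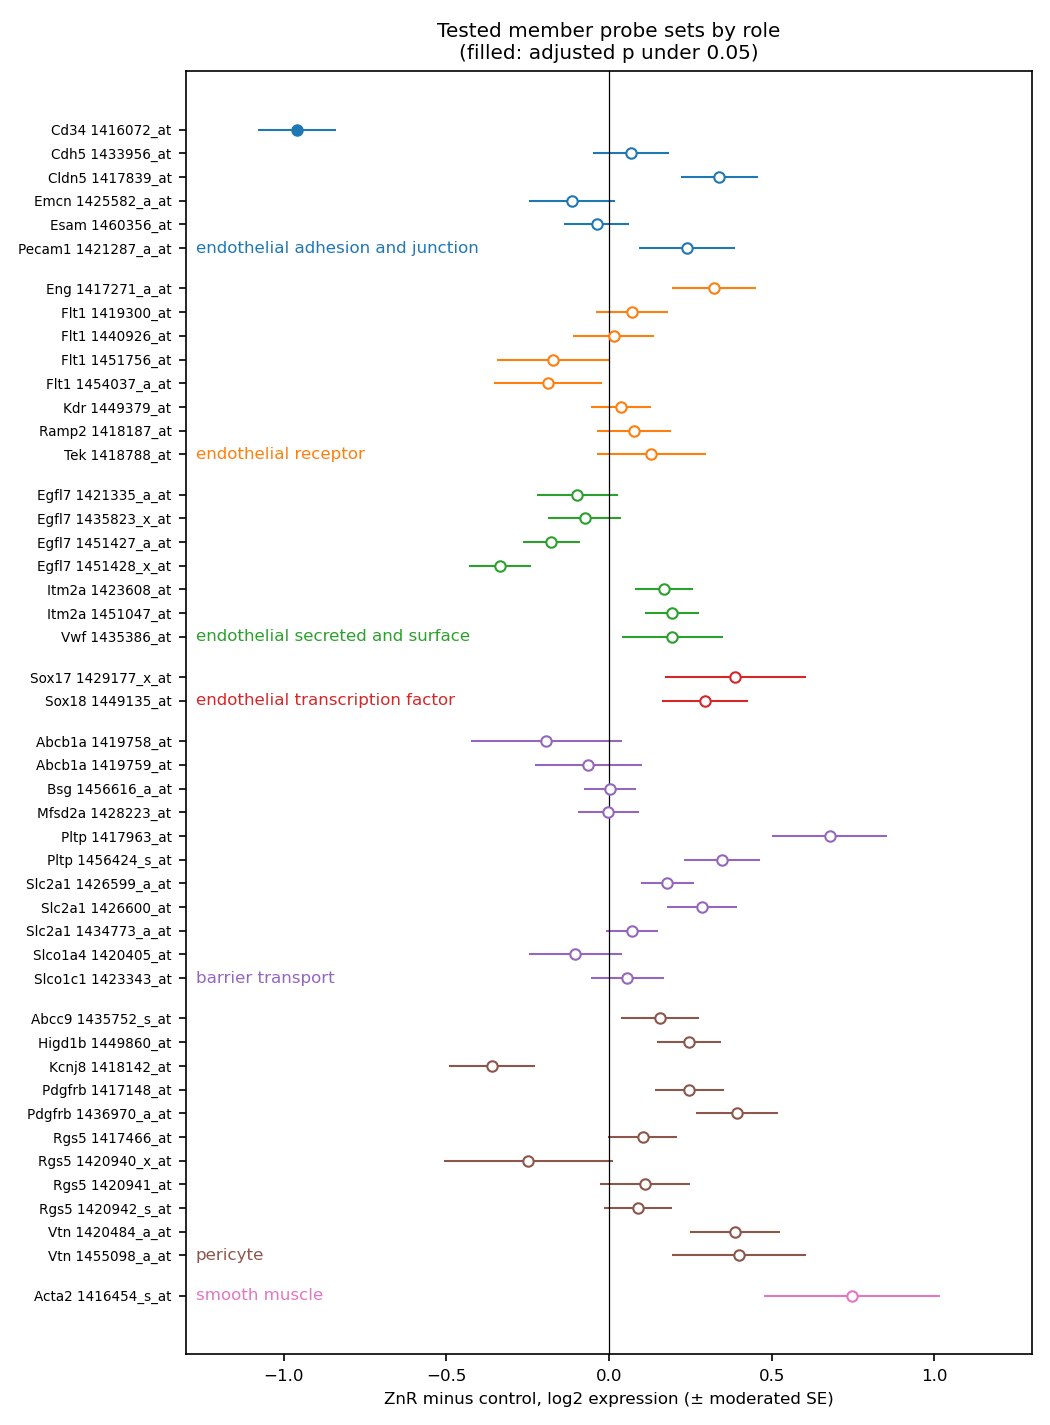
Difference between ZnR and control mice (log2 expression, horizontal axis) for each of the 46 tested member probe sets, with bars of 1 moderated standard error and colours for roles. Cd34 at -0.96 is the sole filled point, meaning an adjusted p under 0.05; the others lie between -0.36 (Kcnj8) and 0.75 (Acta2).

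The promoters of 2 genes are shown because Cd34 is the member that fell and Acta2 had the highest difference among members. They are the 250 bases before the annotated start, from RefSeq on GRCm38.p6, read along the gene's strand; 23 of the 36 genes had an entry. Capitals mark motif matches on either strand. In Cd34 (chr1:194938571-194938820, plus strand) they mark AGGAAG, a core sequence bound by ETS factors, a family known for its role in endothelial genes, here on the opposite strand. In Acta2 (chr19:34255374-34255623, minus strand) they mark the CArG box, the element bound by serum response factor in smooth muscle genes, with at least 5 of its 6 central bases A or T.

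Cd34: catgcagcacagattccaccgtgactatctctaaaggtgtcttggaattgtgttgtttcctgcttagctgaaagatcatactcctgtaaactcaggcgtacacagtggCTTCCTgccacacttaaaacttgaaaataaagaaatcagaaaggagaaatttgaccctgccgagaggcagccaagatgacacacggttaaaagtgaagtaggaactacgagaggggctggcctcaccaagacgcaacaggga

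Acta2: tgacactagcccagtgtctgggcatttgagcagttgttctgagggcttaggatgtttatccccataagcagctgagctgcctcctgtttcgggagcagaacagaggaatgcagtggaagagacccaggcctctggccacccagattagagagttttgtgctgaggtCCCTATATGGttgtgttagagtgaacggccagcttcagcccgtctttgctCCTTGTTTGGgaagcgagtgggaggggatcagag

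The Cd34 window held 1 AGGAAG match, 142 to 137 bases before the start. AGGAAG was found in 12 of the 26 promoters listed for the members and in 29.5% of all 32851 promoters of the same length. The Acta2 window held 2 CArG boxes of the looser kind, 84 to 75 and 34 to 25 bases before the start. That pattern was in 5 of the 26 promoters (Acta2, Egfl7, Eng, Kdr and Slco1a4) and in 8.59% of all. The strict CArG box, with all 6 central bases A or T, was in none of the 26 and in 1.47% of all promoters. A match of letters describes the window and shows no binding.

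Among adhesion and junction genes, Cd34 (probe set 1416072_at) measured 7.64, 7.94 and 7.86 log2 units in control mice 1, 5 and 9, and 7.02, 6.70 and 6.83 in ZnR mice 3, 7 and 11. All ZnR mice lay below all controls. The means were 7.81 ± 0.16 and 6.85 ± 0.16 (SD, n = 3 per diet), so the ZnR level was 1.94-fold below control (difference of -0.96 ± 0.12 SE on the log2 scale, limma adjusted p = 0.0214). The difference was -0.62 between ZnR mouse 3 and control mouse 1 (the low-18S pair) and -1.13 in the remaining mice. In the fits that left out 1 mouse it lay between -1.05 and -0.88 and passed without control mouse 1 (adjusted p = 0.0316). It did not pass without control mouse 5 (0.0952), control mouse 9 (0.0546), ZnR mouse 3 (0.0732), ZnR mouse 7 (0.055) or ZnR mouse 11 (0.0776), nor without the low-18S pair (0.0658). In the same arrays, 6 of 7 listed markers of cortical excitatory neurons were measured. Of these, 5 fell, where 149 of all 11749 genes did. The mean level of these markers was 9.04 to 9.16 in controls and 8.04 to 8.24 in ZnR mice. Their part in the Cd34 result was not tested.

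**Figure D2:**
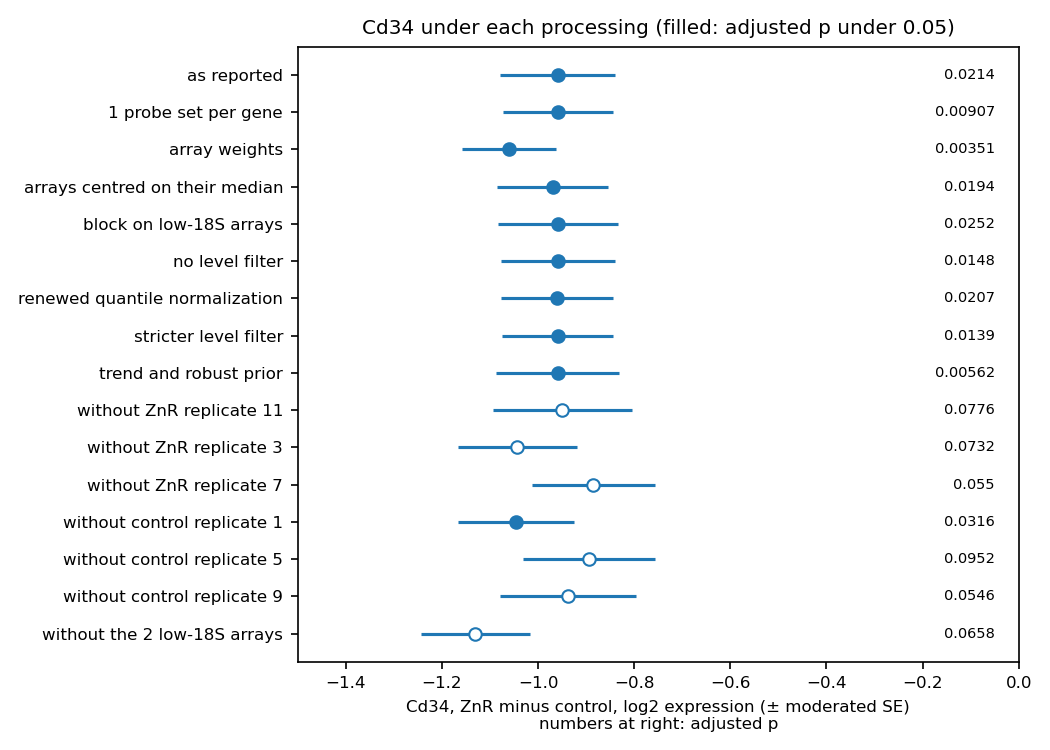
Cd34 difference between ZnR and control mice (log2 expression, horizontal axis, with bars of 1 moderated standard error) under each processing setting, with the adjusted p at the right. All 16 estimates lie between -1.13 and -0.88, and 10 of them (filled) passed the threshold; the 6 open points leave out 1 or 2 mice.

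None of the other 5 adhesion and junction genes passed, with means on either side of 0. Cldn5, the main tight junction claudin of brain endothelium, measured 6.79, 6.95 and 7.06 in controls and 7.36, 7.08 and 7.37 in ZnR mice. The groups met closely without overlapping, control mouse 9 lying just below ZnR mouse 7. The difference was 0.34 ± 0.12 SE (limma adjusted p = 0.204), with 0.58 in the low-18S pair and 0.22 in the remaining mice. Pecam1, an endothelial adhesion molecule, measured 4.05, 4.56 and 4.09 in controls and 4.38, 4.58 and 4.46 in ZnR mice, with control mouse 5 inside the ZnR range (0.24 ± 0.15 SE, limma adjusted p = 0.47). Cdh5, the cadherin of endothelial adherens junctions, differed by 0.07 ± 0.12 SE. Esam, an immunoglobulin-like junction protein, differed by -0.04 ± 0.10 SE, and the endothelial sialomucin gene Emcn by -0.11 ± 0.13 SE. The Emcn difference was 0.23 in the low-18S pair and -0.29 in the remaining mice. Control and ZnR levels overlapped for Cdh5, Esam and Emcn.

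Receptor genes showed small differences, and none of 8 probe sets passed. Eng encodes a coreceptor for the transforming growth factor beta family. It measured 5.68, 5.50 and 5.20 in controls and 5.73, 5.85 and 5.77 in ZnR mice. All ZnR values were higher (difference 0.32 ± 0.13 SE, limma adjusted p = 0.265), by 0.05 in the low-18S pair and 0.46 in the remaining mice. The VEGF receptor gene Flt1 was read by 4 probe sets, which differed in sign. Of these, 1454037_a_at measured 4.96, 4.94 and 4.91 in controls and 5.12, 4.43 and 4.70 in ZnR mice, and 1451756_at measured 5.88, 6.16 and 6.14 in controls and 6.17, 5.52 and 5.97 in ZnR mice. In both, ZnR mouse 7 was the lowest of all mice and ZnR mouse 3 the highest, and the differences were -0.19 ± 0.17 SE and -0.17 ± 0.17 SE. In the low-18S pair they were 0.16 and 0.29, and in the remaining mice -0.36 and -0.40. The other two Flt1 probe sets differed by 0.07 and 0.01. Kdr, the second VEGF receptor gene, differed by 0.04 ± 0.09 SE. The angiopoietin receptor gene Tek differed by 0.13 ± 0.17 SE, and by 0.03 without ZnR mouse 11 and 0.32 without ZnR mouse 7. Ramp2, whose product makes the calcitonin receptor-like receptor respond to adrenomedullin, differed by 0.08 ± 0.11 SE. Limma adjusted p-values of all 8 lay between 0.265 and 0.971.

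None of the 7 probe sets of secreted and other surface genes passed, and their differences lay on either side of 0. Egfl7, which encodes a protein that endothelial cells secrete into their matrix, was lower on average in all 4 of its probe sets. Its probe set 1451428_x_at measured 7.70, 7.61 and 7.50 in controls and 7.16, 7.29 and 7.36 in ZnR mice, with no overlap (difference -0.34 ± 0.09 SE, limma adjusted p = 0.133). The suffix x marks probes that can also bind other transcripts. Probe set 1451427_a_at measured 5.44, 5.41 and 5.58 in controls and 5.24, 5.30 and 5.36 in ZnR mice, again all ZnR mice below all controls (-0.18 ± 0.09 SE, limma adjusted p = 0.355). The remaining pair differed by -0.07 and -0.10, and their levels overlapped. Itm2a, an integral membrane protein gene expressed in brain endothelium, measured 8.93, 8.85 and 8.95 in controls and 9.07, 9.05 and 9.19 in ZnR mice on probe set 1451047_at. All ZnR levels were higher there, by 0.19 ± 0.08 SE (limma adjusted p = 0.298). On the other Itm2a probe set the levels overlapped, with a difference of 0.17 ± 0.09 SE. The gene of the clotting protein von Willebrand factor, Vwf, differed by 0.19 ± 0.16 SE with overlap, and by 0.03 without control mouse 1.

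The transcription factor genes Sox17 and Sox18 belong to the SoxF group, which acts in endothelial and arterial development. On their tested probe sets, both were higher on average in ZnR mice. Sox18 measured 5.19, 5.17 and 5.03 in controls and 5.68, 5.20 and 5.39 in ZnR mice, with ZnR mouse 3 well above the rest and ZnR mouse 7 next to the controls (0.30 ± 0.13 SE, limma adjusted p = 0.309). The Sox18 difference was 0.49 in the low-18S pair and 0.20 in the remaining mice. Sox17 was tested on probe set 1429177_x_at, which also has the suffix x. It measured 5.23, 5.88 and 5.90 in controls and 6.40, 5.84 and 5.94 in ZnR mice (0.39 ± 0.22 SE, limma adjusted p = 0.417). Control mouse 1 was the lowest and ZnR mouse 3 the highest, and the 4 other mice lay together. Between these 2 arrays, the low-18S pair, Sox17 differed by 1.17, and in the remaining mice by -0.0016. The other Sox17 probe set, 1421657_a_at, was too low to test and differed by -0.04. There the low-18S pair gave -0.50 and the remaining mice 0.19.

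Barrier transport genes had 11 tested probe sets, and none passed. The highest difference was that of Pltp, which encodes the phospholipid transfer protein that moves lipids between lipoproteins. Its probe set 1417963_at measured 7.37, 7.67 and 7.59 in controls and 8.32, 7.83 and 8.51 in ZnR mice. Probe set 1456424_s_at measured 9.24, 9.47 and 9.52 in controls and 9.60, 9.77 and 9.90 in ZnR mice. All ZnR mice were above all controls on both probe sets, by 0.68 ± 0.18 SE (limma adjusted p = 0.113) and 0.35 ± 0.12 SE (limma adjusted p = 0.19). On the first the difference was 0.95 in the low-18S pair and 0.54 in the remaining mice. The first passed in a fit with array weights (0.62, limma adjusted p = 0.0412), in which 2003 of 25381 probe sets passed. In that fit control mouse 5 alone had a weight of 6.57 against 0.512 to 0.987 for the others.

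The glucose transporter gene Slc2a1 was read by 3 probe sets. Of these, 1426600_at measured 9.25, 9.19 and 8.95 in controls and 9.46, 9.31 and 9.47 in ZnR mice. ZnR levels were all higher there (0.29 ± 0.11 SE, limma adjusted p = 0.233) and on 1426599_a_at (0.18 ± 0.08 SE), and overlapped on 1434773_a_at (0.07 ± 0.08 SE). The drug efflux pump gene Abcb1a differed by -0.19 ± 0.23 SE and -0.06 ± 0.16 SE on its probe sets. Slco1a4 and Slco1c1, organic anion transporter genes of which the second carries thyroid hormone, differed by -0.10 ± 0.14 SE and 0.06 ± 0.11 SE. The lysophospholipid transporter gene Mfsd2a differed by -0.0020 ± 0.09 SE, and Bsg, whose product escorts monocarboxylate transporters to the membrane, by 0.0029 ± 0.08 SE. These last 2 had the smallest differences among the tested member probe sets.

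**Figure D3:**
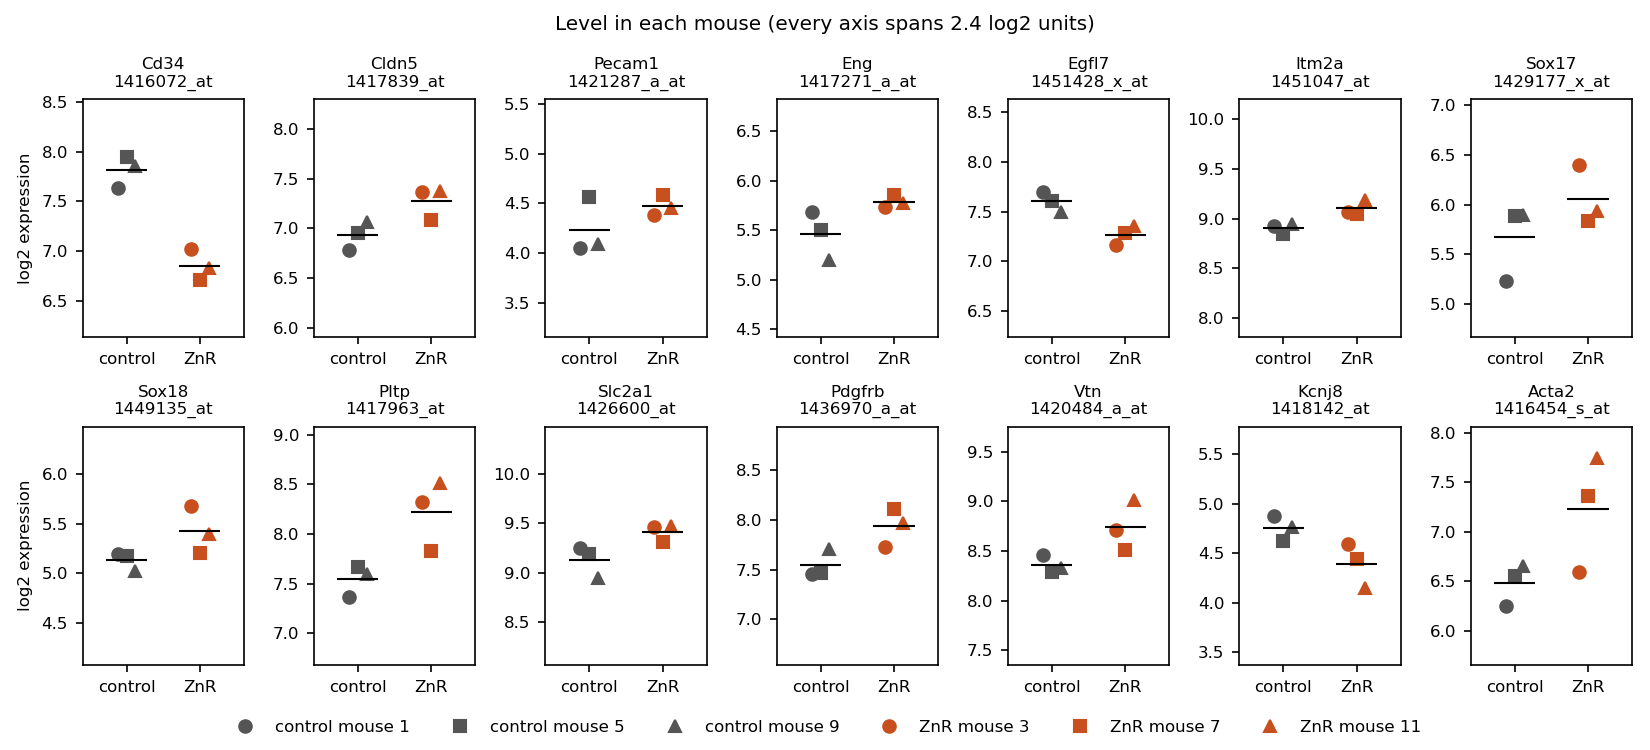
Level in each of the 6 mice (log2 expression, vertical axis; every panel spans the same range) for 14 member genes, each by its probe set with the smallest p, with bars at the mean of each diet. Cd34 is the panel with the widest gap, 7.64 to 7.94 in controls and 6.70 to 7.02 in ZnR mice; Acta2 spreads from 6.59 to 7.74 within the ZnR mice.

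Pericyte genes were higher on average in ZnR mice for 9 of 11 tested probe sets, where 53.6% of all probe sets were, and none passed. Pdgfrb, the receptor that recruits pericytes, measured 7.46, 7.46 and 7.71 in controls and 7.73, 8.11 and 7.97 in ZnR mice on probe set 1436970_a_at. The groups did not overlap, but control mouse 9 and ZnR mouse 3 were nearly level (difference 0.39 ± 0.13 SE, limma adjusted p = 0.17). Its other probe set differed by 0.25 ± 0.11 SE. Vtn, the gene of the matrix protein vitronectin that brain pericytes make, measured 8.46, 8.29 and 8.33 in controls and 8.71, 8.50 and 9.02 in ZnR mice on probe set 1420484_a_at. All ZnR mice were higher and ZnR mouse 11 stood highest (0.39 ± 0.14 SE, limma adjusted p = 0.21). The second Vtn probe set differed by 0.40 ± 0.21 SE.

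The 2 subunit genes of the vascular ATP-sensitive potassium channel differed in sign. Kcnj8, the pore subunit gene, measured 4.87, 4.62 and 4.77 in controls and 4.59, 4.44 and 4.15 in ZnR mice. All ZnR mice were lower, by -0.36 ± 0.13 SE (limma adjusted p = 0.223), on a probe set not far above the level filter. Abcc9, the sulfonylurea receptor subunit gene, differed by 0.16 ± 0.12 SE with overlap. Higd1b, a pericyte-enriched gene, was higher in all ZnR mice by 0.24 ± 0.10 SE (limma adjusted p = 0.266). Rgs5, a regulator of G protein signalling and a common pericyte marker, gave 0.09 to 0.11 on 3 probe sets and -0.25 ± 0.26 SE on 1420940_x_at, where the low-18S pair gave 0.12 and the remaining mice -0.43.

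Smooth muscle was represented by 1 tested probe set, that of Acta2, the smooth muscle alpha-actin gene. It measured 6.25, 6.55 and 6.66 in controls and 6.59, 7.36 and 7.74 in ZnR mice. ZnR mice 7 and 11 were above every control, while ZnR mouse 3 lay inside the control range. The difference was 0.75 ± 0.27 SE (limma adjusted p = 0.221), 1.07 without ZnR mouse 3 and 0.49 without ZnR mouse 11. It was 0.35 in the low-18S pair and 0.95 in the remaining mice. The probe set, 1416454_s_at, has the suffix s, which marks probes shared by several transcripts. Tagln, the gene of the actin-binding protein transgelin, was not tested, with levels of 3.83, 3.81 and 3.60 in controls and 3.89, 4.28 and 4.61 in ZnR mice, the same ZnR mice 7 and 11 being the highest. Myh11, the smooth muscle myosin heavy chain gene, stayed between 2.69 and 3.51 on both probe sets.

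Low values also kept Tie1 and Anpep out of the test. Tie1, a coreceptor of Tek, measured 3.36 to 3.60 in controls and 3.71 to 3.99 in ZnR mice. The aminopeptidase gene Anpep measured 2.85 to 3.07 over all mice. The other untested probe sets belonged to Cdh5, Eng, Sox17, Abcc9 and Acta2, and lay between 2.09 and 4.35. Differences between such low values are compressed on this scale.

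With each gene represented by its probe set of the highest mean level, the 23 measured endothelial genes had a median difference of 0.07 (range -0.96 to 0.39) and 69.6% were higher on average in ZnR mice. The 7 measured mural genes had a median of 0.24 (range -0.36 to 0.75) and 85.7% were higher. Over all 11749 genes the median was 0.03 and 57.6% were higher. These medians carry no test. Without ZnR mouse 7 the endothelial median was 0.15, and without the low-18S pair it was 0.0021, while the mural median was 0.15 without that pair.

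**Figure D4:**
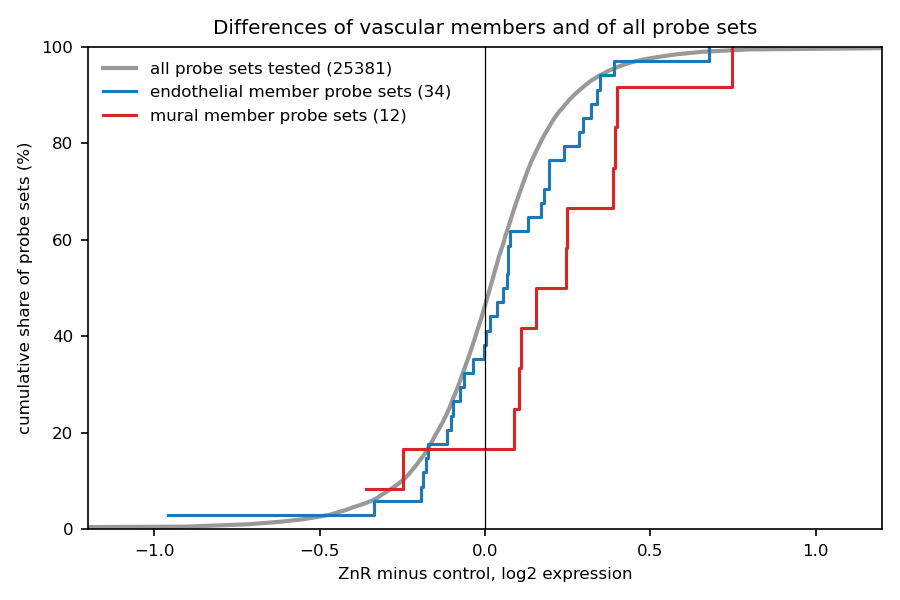
Cumulative share of probe sets (vertical axis, %) by difference between ZnR and control mice (log2 expression, horizontal axis), for all 25381 tested probe sets and for 34 endothelial and 12 mural member probe sets. The endothelial curve lies near that of all probe sets, with a median of 0.06 and Cd34 alone at -0.96, and the mural curve lies to its right, with a median of 0.20 against 0.0152.

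Over single mice, the endothelial genes did not order by diet. Of the 23 genes, 8 had their lowest level in control mouse 1 and 7 in ZnR mouse 7, while 10 had their highest in ZnR mouse 11. Their mean, with each gene centred on all 6 mice, was -0.10, 0.01 and 0.0046 in control mice 1, 5 and 9 and 0.07, -0.07 and 0.08 in ZnR mice 3, 7 and 11, so the diets overlapped. The mural mean was -0.18, -0.13 and -0.04 in controls and 0.03, 0.11 and 0.22 in ZnR mice, without overlap. Marker lists of most other cell types that a dissection can hold were also higher in the ZnR mice on average. Those of excitatory neurons and microglia were lower. For the calls that follow, the shares over all genes were 1.92% in either direction and 0.655% higher. Leptomeningeal and perivascular fibroblast markers (8 of 10 measured, with Lum and Col1a1 too low to test) had a mean level of 5.47 to 6.41 in controls and 5.93 to 6.93 in ZnR mice, and none passed. Ependymal markers (6 of 7 measured, without Mia) were at 4.15 to 5.10 in controls and 5.77 to 5.89 in ZnR mice, and 1 rose. The ependymal marker Rarres2 did not pass on the probe set that represents it (1.02, limma adjusted p = 0.0636). It rose on its other probe set (1.13, limma adjusted p = 0.0447), where 0.461% of all probe sets tested rose. Choroid plexus markers (4 of 8, without Folr1, Kcnj13, Enpp2 and Sostdc1) were at 4.26 to 4.97 and 5.40 to 5.73, and 1 rose. Astrocyte markers (8 of 8) were at 10.3 to 10.5 and 10.6 to 10.7, and 1 rose. Oligodendrocyte precursor markers (6 of 6) were at 7.62 to 7.69 in controls and 7.90 to 8.12 in ZnR mice, without overlap, and none passed. Oligodendrocyte markers (7 measured) were higher on average for 7 of 7, at 10.91 to 10.99 and 10.94 to 11.66, with ZnR mouse 7 inside the control range, and none passed. The striatal neuron markers given above did not overlap between diets either, and 8 of 8 were higher on average. Microglial markers (7 of 8, without Itgam) were lower on average for 6 of 7, at 7.54 to 7.65 and 7.44 to 7.62, and none passed. Their part in the mural and Pltp values was not tested. No listed red blood cell marker had a tested probe set. Some of their symbols are not in the annotation, so this does not show that blood was absent.

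**Figure D5:**
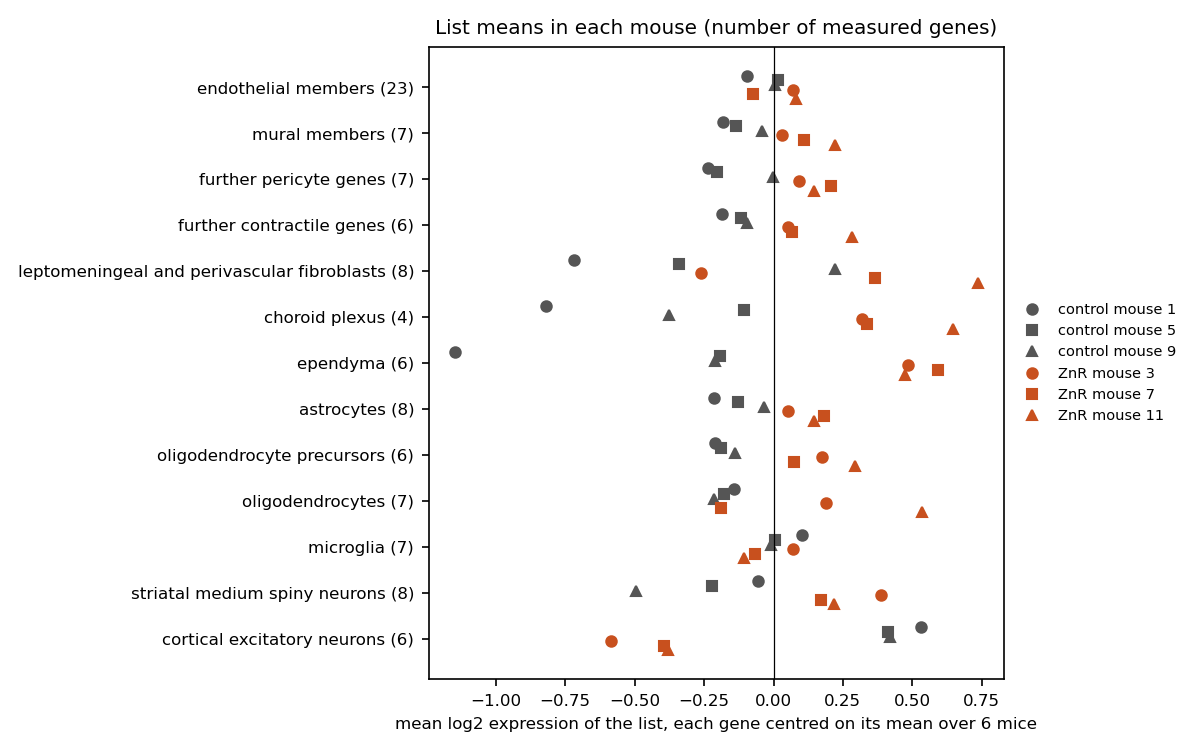
Mean log2 expression of each list in each of the 6 mice (horizontal axis, every gene centred on its mean over the mice), with the number of measured genes beside the name. Endothelial genes overlap between diets, with ZnR mouse 7 at -0.07; mural genes run from -0.18 to -0.04 in controls and from 0.03 to 0.22 in ZnR mice, fibroblast, ependymal and choroid plexus markers spread more widely, and excitatory neuron markers lie below 0 in the ZnR mice while striatal neuron markers lie above it.

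Vascular genes outside the member list were counted by list, with 1 probe set per gene and a background of 1.92% of 11749 genes past the threshold in either direction and 0.655% higher. Of 6 further contractile genes measured, 1 rose and 5 did not pass. The gene that rose was Myl9, the regulatory light chain of smooth muscle myosin. It measured 5.13, 5.41 and 5.53 in controls and 6.06, 5.99 and 6.22 in ZnR mice. The lowest ZnR mouse was well above the highest control, and the difference was 0.73 ± 0.12 SE (limma adjusted p = 0.0431). It passed in none of the fits without 1 mouse (adjusted p 0.0571 to 0.14), nor without the low-18S pair (0.148). The median of the 6 genes was 0.38, beside the same fibroblast, ependymal and choroid plexus values given above. On average 5 of the 6 were higher in ZnR mice, where 57.6% of all genes were. Mylk went the other way, with all ZnR mice below all controls (-0.40 ± 0.14 SE, limma adjusted p = 0.208). Its other probe set differed by -0.18.

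The 7 further pericyte genes measured were all higher on average (median 0.30), where 57.6% of all genes were (median 0.03). None passed. Differences ran from 0.06 (Foxf2, on a probe set near the level filter) to 0.64 ± 0.26 SE (Zic1, limma adjusted p = 0.268). The Zic1 levels overlapped, control mouse 9 lying above ZnR mouse 3, and control mouse 1 was the lowest at 10.89. Zic1 was far higher than the other genes of this list, which stayed at or below 6.51 in every mouse. How much of its signal came from pericytes was not tested. The smallest p was that of Cspg4, the NG2 proteoglycan gene that oligodendrocyte precursors express too, at 0.32 ± 0.11 SE (limma adjusted p = 0.192). Of 20 growth factor and receptor genes, none passed on the probe set that represents the gene. The endothelin receptor gene Ednrb differed by 0.41 ± 0.12 SE there (limma adjusted p = 0.137). Its 2 other probe sets differed by 0.29 and 0.50, and their lowest limma adjusted p was 0.0344. Over all probe sets tested, 1.47% passed in either direction. Angpt1, the activating ligand of Tek, measured 5.43, 5.27 and 5.68 in controls and 4.78, 5.03 and 4.60 in ZnR mice, all lower in ZnR mice (-0.66 ± 0.15 SE, limma adjusted p = 0.0766). It passed in a refit with 1 probe set per gene (limma adjusted p = 0.047), in which 4.24% of all genes did.

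No gene passed among 12 Wnt and barrier induction genes, where Wnt7b, a ligand that induces the barrier, differed by -0.56 ± 0.15 SE (limma adjusted p = 0.113). Nor did any of 7 further tight junction genes, where Jam2, a junctional adhesion molecule gene, was closest to the threshold (0.54 ± 0.10 SE, limma adjusted p = 0.0572, and 0.0306 in the refit with 1 probe set per gene). Its other probe sets differed by -0.04 to 0.24. Among 13 further barrier transporters none passed, with the efflux pump gene Abcg2 at -0.24 ± 0.09 SE (limma adjusted p = 0.223) and a list median of -0.06. The 6 endothelial activation genes measured gave no call, with the interleukin-1 receptor gene Il1r1 at 0.44 ± 0.10 SE (limma adjusted p = 0.0776, and 0.0439 in that refit). Of 9 basement membrane genes none passed, and the matrix glycoprotein gene Sparc differed by 0.50 ± 0.16 SE (limma adjusted p = 0.181).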

How the data were processed

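Total RNA (500 ng per mouse) was read on Affymetrix Mouse430_2 arrays. The file deposited by the authors holds a log2 value for each probe set and mouse, from 0.99 to 14.7, used unchanged. GCRMA 2.28.0 and R 2.15.1 are named, per the submitters' processing notes, with no further filter. GCRMA makes quantiles nearly equal between arrays, so a change of total RNA cannot be seen. The platform annotation gave 1 symbol for 34945 probe sets. Probe sets above 4 on at least 3 of 6 arrays, without 64 array controls, were fitted in limma 3.58.1 (R 4.3.3, lmFit and eBayes, 2-sided, no covariate, since mouse numbers differ between diets) and adjusted by Benjamini-Hochberg over all 25381. Errors are moderated standard errors. The fit was tested on simulated data with independent noise for each probe set, which cannot speak to effects shared across an array. Members and lists were chosen with earlier results of these data known. Named with values per mouse were members past the threshold and the 3 probe sets of smallest p per role; in other lists, genes past the threshold or else the 1 of smallest p. Alternatives covered the filter, renormalization, variance prior (statmod 1.5.0), array weights, a low-18S block, the unit counted and mice left out. Tables and plots used Python 3.11.15, pandas 2.3.3 and matplotlib 3.10.9.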

Additional observations from a re-analysis of the deposited data

How the results depend on the processing

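The count of probe sets past the threshold was 373. It was 2003 with array weights, 904 with a trended robust prior, 1 without the 2 low-18S arrays and 1 to 109 in the fits without 1 mouse. Member probe sets called higher numbered 0, and 3 of 46 with array weights (Pltp, Pdgfrb and Vtn). The 2003 passing in that fit were out of 25381 probe sets tested. Those called lower numbered 1, 2 with array weights (Cd34 and Egfl7), 0 without the low-18S arrays and 0 to 1 without 1 mouse. The mural median of 0.24 was 0.39 with a stricter filter (log2 above 6), which tests fewer genes, and the endothelial median of 0.071 was 0.029. The endothelial median ran from 0.040 to 0.15 without 1 mouse. For the other changes the cause was not tested. Cd34 kept its direction in all 16 settings.

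Signs changed only for probe sets that passed in no setting. Without the low-18S arrays these were Cdh5 (-0.049), Flt1 1419300_at (-0.051) and 1440926_at (-0.049), Sox17 (-0.0016), Slco1c1 (-0.098), Mfsd2a (0.013), Bsg (-0.0020) and Rgs5 1420942_s_at (-0.0077). With array weights they were Pecam1 (-0.024), Egfl7 1435823_x_at (0.00021) and Slco1c1 (-0.030), after renewed quantile normalization Flt1 1440926_at (-0.00092), and after median centring Bsg (-0.0074). Leaving out 1 mouse gave Cdh5 -0.031 to 0.17, Esam -0.11 to 0.018, Flt1 1419300_at -0.0095 to 0.15, 1440926_at -0.053 to 0.13 and 1451756_at -0.31 to 0.012, Kdr -0.0094 to 0.10, Ramp2 -0.023 to 0.18, Abcb1a -0.43 to 0.022 and -0.21 to 0.11, Slco1a4 -0.27 to 0.0017, Slco1c1 -0.033 to 0.12, Mfsd2a -0.055 to 0.057 and Bsg -0.016 to 0.038. No paired analysis was possible because the diets share no mouse number. With 3 arrays per diet, differences of low probe sets near the filter are the least certain.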

Other observations

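Probe sets annotated to a member together with another gene were outside the rule. The probe set shared by Ly6c1 and Ly6c2, surface antigen genes of which the first marks brain endothelium, measured 9.13, 9.05 and 9.09 in control mice 1, 5 and 9 and 9.06, 9.14 and 9.24 in ZnR mice 3, 7 and 11. The diets overlapped, and the difference was 0.06 ± 0.09 SE (limma adjusted p = 0.786). For the 2 probe sets shared by Ramp2 and its neighbour Vps25 the differences were 0.06 ± 0.09 SE and -0.0045 ± 0.09 SE, near the 0.08 of the probe set of Ramp2 alone.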
